A study of Mus musculus with 8 samples.

Results

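The killer cell lectin-like receptors described here are the products of 9 of the 47937 genes in the count table: Klrb1c, Klrb1a, Klrd1, Klrk1, Klrc1, Klrc2, Klre1, Klra7 and Klrg1. They were picked by name from the receptors that mark natural killer (NK) cells, with their raw counts and their difference between the groups already known. For that reason their values in this comparison are given as a description and carry no p-value. The gene lists set beside them were also chosen with earlier results of these data known. The adjusted p-values of the listed genes come from the test over all tested genes and are no independent check on the members. RNA from sorted thymocytes of 8 mice was sequenced to ask how loss of Ndrg3 in T cells changes gene expression in CD8 single-positive (CD8SP) cells. The 4 control mice (Ndrg3 ctrl) had the genotype Ndrg3 +/fl;Lck-cre+ and the 4 knockout mice (Ndrg3 TKO) the genotype Ndrg3 fl/fl;Lck-cre+. All were 6 to 7 weeks old. Both groups thus carried the Cre transgene, which the proximal Lck promoter drives in developing thymocytes, and at least 1 floxed allele, so the control cells were heterozygous in place of wild type. The sorted population was CD8SP, TCRβ+ and MHC-I high, mature CD8 thymocytes, and each library is a biological replicate from 1 mouse.

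Most of these receptors are C-type lectin-like proteins encoded side by side in the natural killer gene complex, and they let NK cells weigh activating against inhibitory signals from the cells they touch. The NKR-P1 receptors (the Klrb1 genes) bind C-type lectin-related ligands, CD94 (Klrd1) pairs with NKG2 chains to read the nonclassical MHC molecule Qa-1, NKG2D (Klrk1) senses stress-induced ligands, and the Ly49 receptors (the Klra genes) bind classical MHC class I. Some T cells express them too, among them NKT cells, γδ T cells and memory-like CD8 T cells.

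Of the 9 genes, 8 lie on chromosome 6 between positions 128609227 and 130233322 (GRCm38), a stretch of 1.62 megabases, and Klrg1 lies apart from them on the same chromosome (chr6:122270596-122282882). Several are recent duplicates, so how well a read can be assigned depends on their sequences. Klrb1c (ENSMUSG00000030325, chr6:128778485-128789215, minus strand) and Klrb1a (ENSMUSG00000030361, chr6:128609227-128623533, minus strand) share 92.6% of their 685 aligned coding bases. Klrc1 (chr6:129666015-129678973) and Klrc2 (chr6:129647496-129660689), also on the minus strand, share 83.1% of 714. The stretches of 60 coding bases with the most differences within each pair, 10 for the Klrb1 genes and 27 for the Klrc genes, are shown with the differing bases in capitals, since reads over such bases tell the paralogs apart. Positions count from the first base of the start codon.

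Klrb1c (coding bases 692 to 751): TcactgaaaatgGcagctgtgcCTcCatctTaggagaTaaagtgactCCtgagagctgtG
Klrb1a (coding bases 566 to 625): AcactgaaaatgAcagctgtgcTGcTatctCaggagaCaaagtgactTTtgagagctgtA
Klrc1 (coding bases 247 to 306): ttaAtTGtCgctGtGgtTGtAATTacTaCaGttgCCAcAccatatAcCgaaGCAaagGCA
Klrc2 (coding bases 229 to 288): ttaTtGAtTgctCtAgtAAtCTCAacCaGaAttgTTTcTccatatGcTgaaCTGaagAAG

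Over whole transcripts, 17.0% of the 50-base windows of Klrb1c also occurred in another gene, most of them in the overlapping gene Gm44511. That gene shares 413 of the 2961 exonic bases of Klrb1c on the same strand and had no count in any library. For Klrb1a the share was 9.92%, for Klrc1 38.6%, for Klrc2 16.3% and for Klra7 12.3%, while Klrd1, Klrk1 and Klrg1 had no such window. The counts of the genes with shared windows are uncertain to that extent, because the handling of reads with several matches is not given in the sources used here.

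The bases before the RefSeq start sites of Klrb1c and Klrb1a are nearly as alike as their coding sequences. They are shown because the levels of the pair, given below, are unequal. Both stretches lie inside the GENCODE spans of the genes given above. In the 250 bases before the RefSeq start sites (GRCm38.p6, minus strand), 188 of 210 aligned bases were identical, or 89.5%. Capitals mark the letters TGTGGT, a RUNX motif, and AGGAAG, an ETS motif, on either strand. AGGTGT, a T-box motif, was also searched and occurred in neither.

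Klrb1c (chr6:128788642-128788891): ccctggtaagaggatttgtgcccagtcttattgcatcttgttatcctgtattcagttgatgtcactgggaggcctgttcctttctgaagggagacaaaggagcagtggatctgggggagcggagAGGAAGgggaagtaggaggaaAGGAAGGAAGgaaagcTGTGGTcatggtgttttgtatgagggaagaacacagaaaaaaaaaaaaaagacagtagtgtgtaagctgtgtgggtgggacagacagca
Klrb1a (chr6:128622935-128623184): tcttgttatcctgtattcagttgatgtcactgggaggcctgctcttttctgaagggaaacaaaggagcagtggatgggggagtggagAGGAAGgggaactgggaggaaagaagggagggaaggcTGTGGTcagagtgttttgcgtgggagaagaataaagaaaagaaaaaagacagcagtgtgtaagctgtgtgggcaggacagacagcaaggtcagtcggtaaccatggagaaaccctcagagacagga

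Each stretch held 1 RUNX motif. The Klrb1c stretch held 3 ETS motifs, of which 2 overlap, and the Klrb1a stretch 1. With the 50 bases after the start site included, the ETS counts were 3 and 2. The stretches are offset along the shared sequence, so the counts cover partly different bases. Among 32544 RefSeq promoters of 300 bases, 16.7% held the RUNX letters, 35.1% the ETS letters and 13.8% the T-box letters, and 5 of the 250 bases of the Klrb1c stretch lie in an annotated exon. Promoters of 7 of the 9 genes were in the reference table, and those of Klrd1 and Klrg1 were not used here.

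Libraries held between 21126698 and 32668081 counts, so that 3 counts, taken here as the floor for a detected gene, correspond to 0.0918 to 0.142 CPM (counts scaled to the library total) and cover counting error only. Ndrg3, the targeted gene, fell from 2335 ± 28.7 to 1499 ± 87.2 normalized counts (SD, n = 4 mice each). The difference was −0.64 on the log2 scale (standard error, SE, 0.0526, adjusted p = 1.04e-05 by edgeR's quasi-likelihood test). The floxed part of the gene is 1 exon, while these counts cover all exons. By western blot, the study reported efficient depletion of the Ndrg3 protein in thymocytes. The markers of mature CD8SP thymocytes, such as Cd8a, Cd3e and Ccr7, were detected in every library, with 12 of 12 tested and none called in either direction by edgeR or DESeq2 (4 had an unadjusted p under 0.05). The CD4 lineage genes summed to at most 7.04 CPM in a library and those of immature thymocytes to at most 55.3 CPM, and none of either list passed edgeR's test, with 1 gene of each at an unadjusted p under 0.05. DESeq2 called Dntt of the second list. Y-linked genes summed to more than 10 CPM in 3 libraries, Ndrg3 ctrl replicate 2 and Ndrg3 TKO replicates 2 and 3, and the labels name no sex.

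Klrb1c encodes NK1.1 (NKR-P1C), an activating receptor that signals through the adaptor FcRγ and marks NK and NKT cells in C57BL/6 mice. Its raw counts were 8, 13, 6 and 3 in Ndrg3 ctrl replicates 1 to 4 and 47, 47, 61 and 66 in Ndrg3 TKO replicates 1 to 4. Every Ndrg3 TKO library was thus above every Ndrg3 ctrl library, and the lowest control library sat at the floor of 3 counts. Normalized to library size, control libraries averaged 8.82 ± 6.70 counts (SD, n = 4) and knockout libraries 51.3 ± 8.66 (SD, n = 4), a ratio of 5.82 and a log2 fold change of 2.62 (SE 0.358). In bulk RNA, more cells of a type and more RNA per cell cannot be told apart. The highest control library, replicate 2, had 18.5 normalized counts, against 42.7 in the lowest Ndrg3 TKO library, and leaving that control library out gave a log2 fold change of 3.15. The control libraries were spread more widely, with a coefficient of variation of 76.0% where counting alone would give 36.5%, than the Ndrg3 TKO libraries with 16.9%, where counting alone would give 13.5%. Klrb1c remained a gene of low abundance in both groups, and 14.1% of the 14633 genes with enough counts to be tested had a lower mean level.

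Klrb1a encodes a closely related NKR-P1 receptor and was barely detected in either group. It had 1 count in each of the 4 control libraries and 1, 1, 3 and 0 counts in Ndrg3 TKO replicates 1 to 4. None of these libraries lies above the floor, so no ratio is given.

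Klrd1 encodes CD94, the invariant partner of the NKG2A, NKG2C and NKG2E chains. It was the only abundant receptor of the 9, with 962, 668, 840 and 883 raw counts in Ndrg3 ctrl and 894, 1266, 1179 and 1539 in Ndrg3 TKO (ENSMUSG00000030165, chr6:129591782-129598775, plus strand). Normalized counts averaged 909.6 ± 58.6 in the controls and 1128 ± 209 in the knockouts (SD, n = 4 each), a ratio of 1.24 and a log2 fold change of 0.31 (SE 0.115). The groups overlapped: Ndrg3 TKO replicate 1, at 857 normalized counts, lay below 3 of the 4 control libraries, while the other 3 knockout libraries, at 1138 to 1367, lay above all of them. Without that library the log2 fold change was 0.42, and without Ndrg3 TKO replicate 4, the highest, it was 0.21.

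The NKG2 family genes were scarce. Klrk1 encodes NKG2D, an activating receptor, and had 3, 11, 16 and 12 counts in Ndrg3 ctrl and 8, 6, 0 and 1 in Ndrg3 TKO. Its groups overlapped through control replicate 1, which was below 2 of the knockout libraries, and the normalized means were 11.7 ± 6.04 and 3.50 ± 3.66 (SD, n = 4 each). Klrc1 encodes NKG2A, the inhibitory partner of CD94, and had 16, 7, 13 and 4 counts in Ndrg3 ctrl and 4, 7, 2 and 0 in Ndrg3 TKO. Control replicate 4 was the library that overlapped with the knockouts, and the normalized means were 10.6 ± 4.82 and 3.03 ± 2.71 (SD, n = 4 each). Klrc2 encodes NKG2C, the activating partner of CD94, and had 3, 2, 6 and 5 counts in Ndrg3 ctrl and 3, 2, 1 and 0 in Ndrg3 TKO. Its lower control libraries were level with the highest knockout library. A fit with no filter on low counts put the log2 fold changes of these genes at −1.69 (SE 0.63) for Klrk1, −1.78 (0.582) for Klrc1 and −1.53 (0.814) for Klrc2.

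Since each of the 3 genes had the lower mean in Ndrg3 TKO, their counts were also added up, a sum chosen after the values had been seen and given with no test. They summed to 98 counts over the 4 control libraries and 34 over the 4 knockout libraries. The summed level was 0.737 to 1.18 CPM in Ndrg3 ctrl and 0.0307 to 0.497 CPM in Ndrg3 TKO, with no overlap, and Ndrg3 TKO replicates 3 and 4 held just 3 and 1 of these counts. The summed NKG2 level and Klrb1c therefore lay in opposite directions in the same libraries.

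The remaining receptors were at the edge of detection. Klre1, whose product pairs with the Klri receptors, had 1, 0, 1 and 0 counts in Ndrg3 ctrl and 0, 1, 0 and 3 in Ndrg3 TKO. Klra7, which encodes the inhibitory Ly49G, had 0, 0, 0 and 6 counts in Ndrg3 ctrl and 0, 4, 3 and 0 in Ndrg3 TKO. Klrg1, an inhibitory receptor for cadherins carried by terminally differentiated effector cells, had 3 counts in Ndrg3 ctrl replicate 1 and none in the other 7 libraries. Together with Klrb1a, these genes had 15 counts in the control and 16 in the knockout libraries, and no difference was detectable at this depth.

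**Figure D1:**
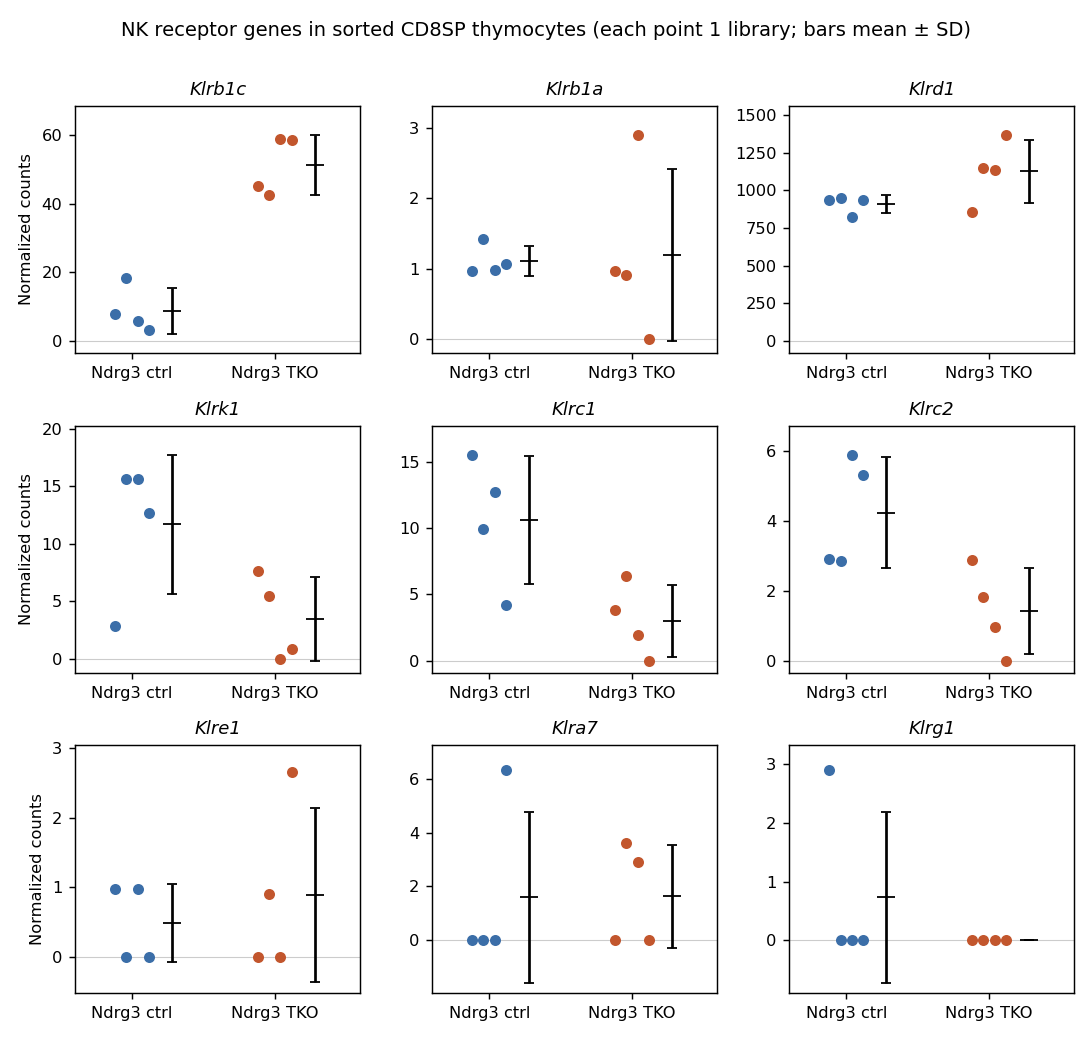
Normalized counts of the 9 receptor genes, 1 panel per gene with its own linear axis; each point is 1 library (blue Ndrg3 ctrl, orange Ndrg3 TKO) and the bars give the mean ± SD of 4 libraries. Klrb1c separates the groups (8.82 against 51.3 on average), Klrd1 overlaps through Ndrg3 TKO replicate 1, and the 3 NKG2 family genes lie lower in Ndrg3 TKO with overlapping points.

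In all, 2 of the 9 genes, Klrb1c and Klrd1, had enough counts to be tested, and 7 did not. Klrb1c was the 1 gene of the 9 called higher, against 0.793% of all tested genes, and also the 1 whose groups did not overlap, against 3.42% of tested genes that did not overlap with Ndrg3 TKO higher. None of the 9 was called lower or had all knockout libraries below all control libraries, against 0.355% and 3.62% of tested genes. Nothing is read from these counts, since the genes were chosen with this contrast known. Levels between genes were compared per length of exon, taken as all annotated exonic bases of a gene. That length is 7183 bases for Klrk1 and 1984 for Klrc1, and the isoforms in use, which were not measured, could change the order. Without it, Klrk1 at 0.405 CPM stood above Klrc1 at 0.366 and Klrb1c at 0.305 in Ndrg3 ctrl. In Ndrg3 ctrl Klrd1 led at 24.5 ± 1.58 CPM per kilobase, followed by Klrc1 at 0.185 ± 0.0839, Klrb1c at 0.103 ± 0.0782 and Klrk1 at 0.0564 ± 0.0290 (SD, n = 4). Below Klrd1, each gene differed from the next in this order by less than the larger of their SDs. In Ndrg3 TKO Klrd1 was at 30.4 ± 5.64, Klrb1c at 0.599 ± 0.101 and Klrc1 at 0.0528 ± 0.0473 CPM per kilobase (SD, n = 4), and there Klrb1c stood apart from Klrc1 by more than the spread of either. Per kilobase, CD94 RNA was thus far more abundant in both groups than that of NKG2A, its most abundant partner among these genes. Klrd1 supplied 95.8% of the receptor counts in Ndrg3 ctrl and 94.6% in Ndrg3 TKO on average, Klrb1c 0.915% and 4.36%, and the 3 NKG2 family genes 2.83% and 0.749%.

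The next question was whether other receptor genes of the complex moved with Klrb1c. Beyond the 9, the annotation holds 21 genes with symbols that start with Klr, of which 10 had no count in any library and 1, Klrb1f, could be tested. Klrb1f encodes a further NKR-P1 receptor, has coding sequence that is 72.1% identical to that of Klrb1c, and shares no 50-base window with another gene. It had 44, 27, 39 and 35 counts in Ndrg3 ctrl and 73, 58, 57 and 63 in Ndrg3 TKO. All knockout libraries were above all control libraries, but the log2 fold change of 0.58 (SE 0.181) did not pass the test (adjusted p = 0.200, edgeR). Klrb1b, the inhibitory NKR-P1 receptor which binds Clec2d, had 1 count in Ndrg3 ctrl and none in Ndrg3 TKO, summed over the 4 libraries of each group. Klra3, a Ly49 gene, had 14 and 7. The summed level of all 21 genes was 1.45 to 2.01 CPM in Ndrg3 ctrl and 1.98 to 2.62 CPM in Ndrg3 TKO.

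Between the outermost of the 8 clustered receptors the annotation places 78 other genes, of which 40 had no count in any library and 13 could be tested. Of these, 1 passed the test, against 1.15% of all tested genes called in either direction. It was Gm44066, a long intergenic noncoding RNA on the minus strand (chr6:128842558-128843171) between Klrb1c and Klrb1f, with 3, 3, 2 and 4 counts in Ndrg3 ctrl and 11, 14, 16 and 11 in Ndrg3 TKO. The groups did not overlap, and the log2 fold change was 1.85 (SE 0.415, adjusted p = 0.0465, edgeR). This call was lost with DESeq2 (adjusted p = 0.0911), with no filter on low counts (0.0541) and when any 1 of the 8 libraries was left out (highest adjusted p 0.167). Clec12a, an inhibitory lectin receptor of myeloid cells, had a log2 fold change of 0.68 (SE 0.168, adjusted p = 0.0783) with groups that did not overlap, and it passed with DESeq2 (0.0121) and with no filter on low counts (0.00763).

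The most abundant genes of the interval did not differ between the groups beyond the spread between libraries. Clec2d encodes the ligand of Klrb1b and averaged 7198 normalized counts in the controls and 7310 in the knockouts (log2 fold change 0.02, adjusted p = 0.961). Clec2i encodes a ligand of the Klrb1f receptor and averaged 3179 and 3234 (log2 fold change 0.03, adjusted p = 0.915). The activation and retention receptor gene Cd69 averaged 2969 and 3261 (log2 fold change 0.14, adjusted p = 0.638). The plot of genes in chromosome order sets these genes beside the receptors.

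**Figure D2:**
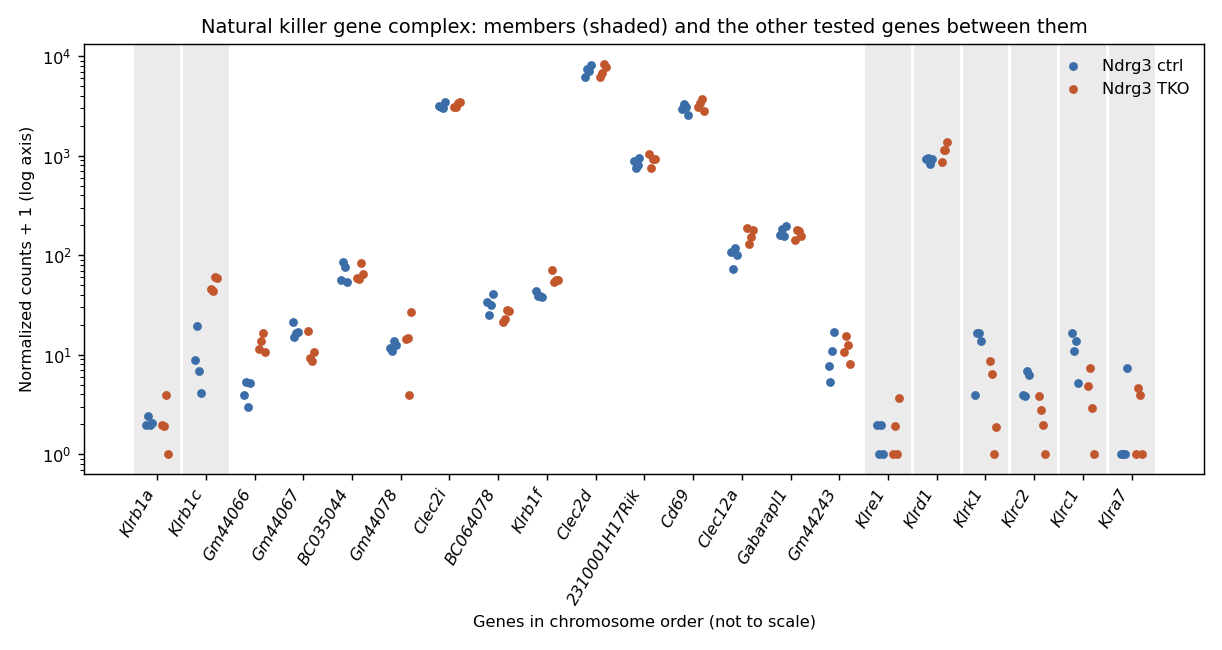
Normalized counts plus 1 on a log axis for the 8 clustered receptor genes (shaded) and the 13 tested genes between them, in chromosome order and not to scale; each point is 1 library (blue Ndrg3 ctrl, orange Ndrg3 TKO). Klrb1c, Gm44066, Klrb1f and Clec12a have all orange points above all blue points, while the points of Clec2d, Clec2i and Cd69 overlap.

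Activating NK receptors signal through adaptor proteins, so the adaptors and the proximal signaling genes were examined next. Of 18 such genes 15 could be tested, 1 rose and none fell, with a median log2 fold change of −0.02 against −0.0033 over all tested genes. Of all tested genes, 0.793% were called higher and 0.355% lower, and the same shares apply to each list below. The gene that rose was Vav3, a guanine nucleotide exchange factor downstream of immune receptors, from 797 ± 94.9 to 1157 ± 61.1 normalized counts (log2 fold change 0.53, SE 0.0809, adjusted p = 0.00349, edgeR). Fcer1g, the FcRγ chain that NK1.1 signals through, had 19, 21, 23 and 24 counts in Ndrg3 ctrl and 25, 21, 24 and 30 in Ndrg3 TKO. Its groups overlapped, and the log2 fold change was −0.03 (SE 0.248, adjusted p = 0.98). Tyrobp, the DAP12 adaptor of activating Ly49 receptors, NKG2C and NKG2D, had 0, 2, 1 and 2 counts in Ndrg3 ctrl and 4, 2, 3 and 4 in Ndrg3 TKO. It was too low to test. Hcst, the DAP10 adaptor of NKG2D, averaged 1044 ± 35.9 and 930.3 ± 10.4 normalized counts (SD, n = 4 each), with all knockout libraries below all control libraries and an adjusted p of 0.249. The most abundant genes of the list were Plcg1, with a log2 fold change of 0.01 (SE 0.049), and Lcp2, with 0.04 (SE 0.051).

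Among the ligands of these receptors, 8 of 18 could be tested and none was called by edgeR or DESeq2, with a median log2 fold change of 0.02. No ligand had an unadjusted p under 0.05 in edgeR's test. H2-T23, which encodes Qa-1, the ligand of CD94 with NKG2A or NKG2C, had a log2 fold change of −0.04 (SE 0.0655), and Ulbp1, an NKG2D ligand, 0.14 (SE 0.104). Cdh1, which encodes the KLRG1 ligand E-cadherin, had 0.21 (SE 0.185). B2m and H2-K1, the most abundant genes of the list, had 0.11 (SE 0.078) and −0.000937 (SE 0.0736).

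Other surface receptors that NK cells share with T cells were tested as a separate list of 14 genes. Of the 11 tested, none was called, 2 had an unadjusted p under 0.05, and the median log2 fold change was 0.06. The nearest to a call was Cd160, a receptor of NK and CD8 T cells for HVEM, with 819 ± 85.0 normalized counts in Ndrg3 ctrl and 1029 ± 115 in Ndrg3 TKO (SD, n = 4 each). Its groups did not overlap, and its log2 fold change of 0.33 (SE 0.0902, adjusted p = 0.121) passed with DESeq2 (adjusted p = 0.0454) and with no filter on low counts (0.0252). Cd96 and Cd226, adhesion receptors with shared ligands and the most abundant of the list, had log2 fold changes of −0.01 (SE 0.0582) and −0.02 (SE 0.0469). Ncr1, which encodes NKp46, the receptor that defines NK cells, had no count in any library.

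Transcription factors of NK and innate-like lymphocytes included 16 tested genes of 17, of which 1 rose and 1 fell, with a median log2 fold change of 0.03. The shares over all tested genes were 0.793% called higher and 0.355% called lower. Eomes, a T-box factor of NK cells and memory-like CD8 T cells, fell from 441 ± 69.5 to 184 ± 28.8 normalized counts (log2 fold change −1.26, SE 0.135, adjusted p = 1.70e-04, edgeR). Gata3, a factor of T cell development and of innate lymphoid cells, rose by a log2 fold change of 0.49 (SE 0.0594, adjusted p = 5.25e-04). Zbtb16, which encodes PLZF, the factor of NKT cells, had 10, 6, 6 and 4 counts in Ndrg3 ctrl and 2, 1, 1 and 3 in Ndrg3 TKO, with no overlap after scaling but too few counts to test. Ets1 and Tcf7, the most abundant of the list, had log2 fold changes of 0.05 (SE 0.081) and 0.02 (SE 0.063).

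Of 16 cytotoxic effector and chemokine genes, 12 could be tested, 1 fell and none rose, with a median log2 fold change of −0.03. Over all tested genes 0.355% were called lower. The gene that fell was the chemokine Ccl5, with 39, 28, 34 and 31 raw counts in Ndrg3 ctrl and 5, 5, 8 and 11 in Ndrg3 TKO. All knockout libraries were below all control libraries (log2 fold change −2.39, SE 0.295, adjusted p = 6.03e-04). The most abundant genes of the list, Ctsw, a cathepsin of cytotoxic cells, and Nkg7, a granule protein, had log2 fold changes of −0.17 (SE 0.061, adjusted p = 0.286) and 0.23 (SE 0.0723, adjusted p = 0.203).

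**Figure D3:**
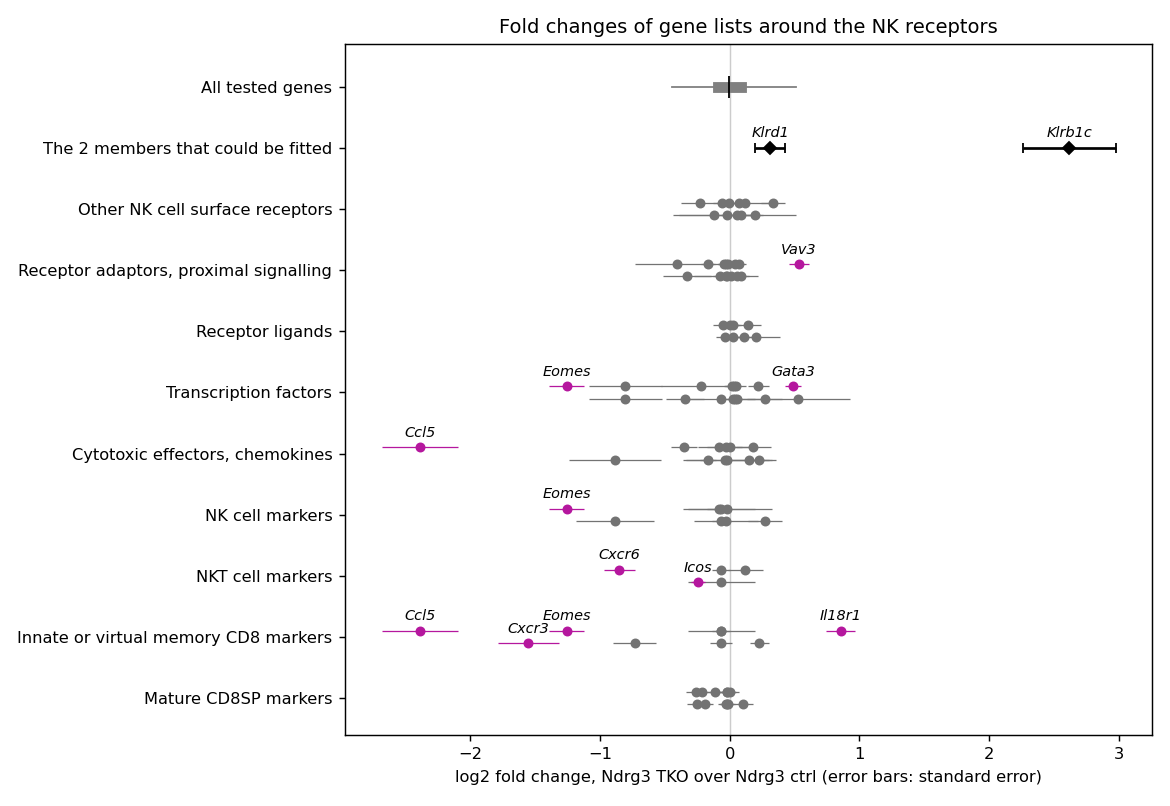
Log2 fold changes of Ndrg3 TKO over Ndrg3 ctrl with standard errors: all tested genes (thick bar the middle 50%, thin line the middle 95%, tick the median), the 2 receptor genes that could be fitted (diamonds, description only), and the tested genes of 9 lists (dots; magenta and named where called by edgeR). Klrb1c at 2.62 lies far to the right of the listed genes, which are mostly near 0, and Ccl5, Cxcr3, Eomes and Cxcr6 lie to the left.

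Markers of cells that carry NK receptors were then read beside Klrb1c. Of 10 NK cell markers 8 could be tested, 1 fell, Eomes, and none rose, against 0.355% of all tested genes called lower. Their summed level was 366 to 444 CPM in Ndrg3 ctrl and 351 to 408 CPM in Ndrg3 TKO, most of it Il2rb, the IL-2 and IL-15 receptor chain, which mature CD8 T cells also express. Ncr1 was at 0 in every library, and Tyrobp and Gzma stayed at most at 4 and 17 counts in a library. Of 9 NKT cell markers 5 could be tested, 2 fell and none rose, against the same 0.355% of all tested genes. The 2 were Cxcr6, a chemokine receptor (log2 fold change −0.85, SE 0.12, adjusted p = 0.00413), and Icos, a costimulatory receptor (−0.24, SE 0.0538, adjusted p = 0.0452), a call that was lost when any 1 of the 8 libraries was left out. The summed NKT marker level was 441 to 518 CPM in Ndrg3 ctrl and 411 to 462 CPM in Ndrg3 TKO, and Il4 had 1 count in all. Trav11, a gene segment of the invariant NKT cell receptor, had 2, 1, 3 and 2 counts in Ndrg3 ctrl and 2, 6, 6 and 4 in Ndrg3 TKO. The called genes of both lists, Eomes, Cxcr6 and Icos, thus fell, and the few Zbtb16 counts were lower in the libraries with the higher Klrb1c counts. Trav11 and Tyrobp, at most at 6 and 4 counts in a library, overlapped between the groups but reached their highest values in Ndrg3 TKO. Trav11d and Traj18 of the NKT list are not given here. By tetramer staining, the study reported that invariant NKT cells were nearly absent from Ndrg3 TKO thymus. The part of NK and NKT cells in the Klrb1c difference was not tested.

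Of 9 γδ T cell markers, 4 could be tested and none was called by edgeR or DESeq2, with 1 at an unadjusted p under 0.05. Their summed level was 15.5 to 19.3 CPM in Ndrg3 ctrl and 16.9 to 24.7 CPM in Ndrg3 TKO, and Trdv4 and Il17a were at 0 throughout. Cd163l1, a scavenger receptor of IL-17-producing γδ T cells, had 51, 28, 73 and 93 counts in Ndrg3 ctrl and 206, 131, 106 and 358 in Ndrg3 TKO. The groups did not overlap, the log2 fold change was 1.49 (SE 0.425), and it did not pass the test (adjusted p = 0.216). Its part in the Klrb1c difference was not tested.

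All 9 markers of innate or virtual memory CD8 T cells could be tested, of which 1 rose and 3 fell. Of all tested genes, 0.793% were called higher and 0.355% lower. Nothing is read from the number of calls, since the list was chosen with earlier results of these data known. DESeq2 also called Ly6c2, a surface antigen of memory cells. Il18r1, the IL-18 receptor, rose by a log2 fold change of 0.86 (SE 0.112, adjusted p = 0.00109). Eomes, Ccl5 and the chemokine receptor gene Cxcr3 (−1.55, SE 0.236, adjusted p = 0.00356) fell. The summed level of the list was 610 to 728 CPM in Ndrg3 ctrl and 619 to 724 CPM in Ndrg3 TKO. The 3 falls went the same way as the summed NKG2 family counts and the opposite way to Klrb1c, while Il18r1 went the way of Klrb1c. Whether the same cells carried these differences was not tested. Markers of B cells, myeloid cells and erythroid cells were too low to test, at 0.0994 to 0.637, 0.234 to 1.08 and 0.0307 to 0.232 CPM in a library, and of the 3 thymic epithelial markers 1, Epcam, was tested and not called.

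Finally, the tested genes with levels most like those of Klrb1c were ranked by Pearson's r of log2 CPM over the 8 libraries. The first 5 were Phlda3 (0.986), Ahr (0.973), Arhgap5 (0.970), Wnt10b (0.967) and Ralgds (0.967). The points share the split into groups, and each of these genes had all Ndrg3 TKO libraries above all Ndrg3 ctrl libraries, so the r values mostly restate that split and are a description. Phlda3 had 14, 19, 11 and 7 counts in Ndrg3 ctrl and 51, 54, 52 and 82 in Ndrg3 TKO. Like Klrb1c it was lowest in control replicate 4 and, among the controls, highest in replicate 2 after scaling. Within the NK receptor genes, r with Klrb1c was 0.853 for Klrb1f and 0.686 for Klrd1, and it was 0.916 for Gm44066 and −0.907 for Eomes. Once the group means were removed, r was −0.07 for Klrb1f, 0.36 for Klrd1, 0.22 for Gm44066 and −0.04 for Eomes. The genes at the top of this second order were Gm24303 (0.980), Angptl6 (0.960), Casc4 (0.958), Sdhaf1 (0.950) and Ube2r2 (0.950). They were picked as the highest among 14633 genes, so these r values too are a description. Each of the 5, like Klrb1c, was highest among the controls in Ndrg3 ctrl replicate 2, so the r values lean on that library. Angptl6, for example, had 93.8 normalized counts there and 63.5 to 70.8 in the other control libraries. None of the 5 differed between the groups by edgeR's test, with adjusted p-values from 0.482 to 1.00.

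**Figure D4:**
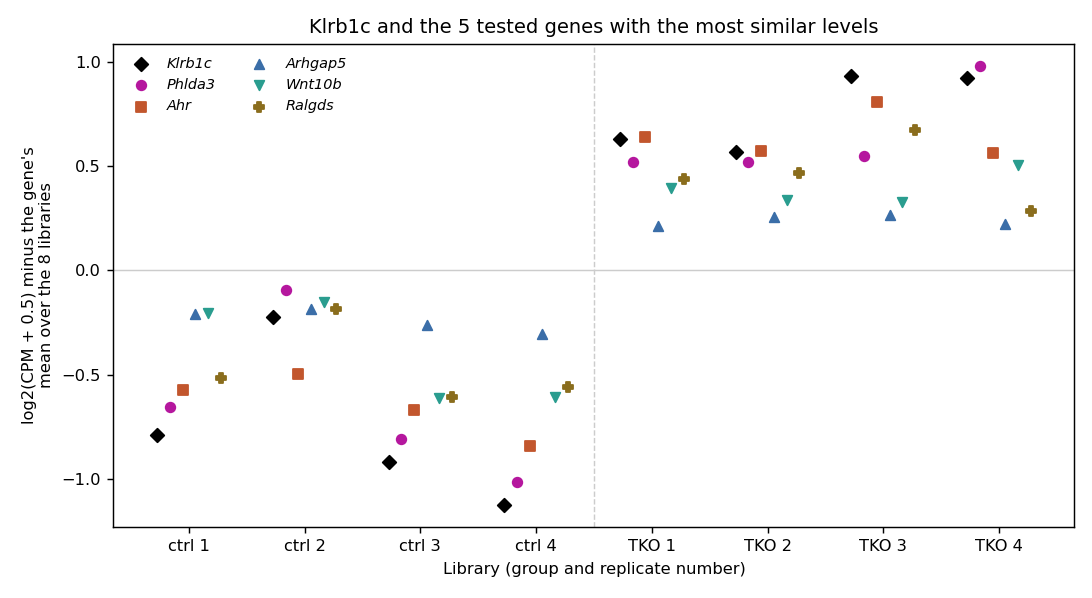
Level of Klrb1c and of the 5 tested genes most like it in each library, as log2 of CPM plus 0.5 after subtraction of the gene's mean over the 8 libraries; libraries are named by group and replicate number. All 4 Ndrg3 TKO libraries lie above 0 and all 4 Ndrg3 ctrl libraries below 0 for each gene, and control replicate 2 is the control library nearest to 0 for Klrb1c.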

How the data were processed

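RNA of sorted thymocytes was made into libraries with a stranded total RNA kit after ribosomal RNA depletion. The authors trimmed reads with cutadapt, aligned them to GRCm38.p4 with STAR, assigned them to GENCODE M9 genes with featureCounts, and deposited raw counts per gene, which are not normalized. Strand setting and multimapping are not given in the sources used here. Symbols and positions came from GENCODE M21, with 98.5% of identifiers matched.

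Groups followed the labels. Counts were tested with edgeR 4.0.16 (R 4.3.3) after filterByExpr and TMM scaling, with the quasi-likelihood test and Benjamini-Hochberg adjustment over 14633 genes (threshold 0.05). Standard errors were derived from the F statistic. Normalized counts refer to the mean library total, and correlations used log2 of CPM plus 0.5. The fit was tested on simulated data. Alternatives were DESeq2 1.42.0, RLE scaling, no filter, a replicate block, a Y-linked covariate and leaving out each library. Promoter sequences are from RefSeq (GRCm38.p6) and coding sequences from GENCODE M21.

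The members and all lists were chosen with earlier results of these data known. Besides the members and Ndrg3, named genes are those of each list past the threshold, its most abundant genes, marker genes, and the genes most like Klrb1c. Gm44511, Klrb1b, Klra3 and single adaptors, ligands and receptors that were not called were named after their values were seen.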

Additional observations from a re-analysis of the deposited data

Results flagged for a closer look

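Of 44 groups of 4 libraries checked among the named genes, 4 held a library that lay far from the other 3. For continuous values chance alone gives about 1 in 20 groups, or 2.2 here. That rate does not hold for Klra7 and Klrg1, where the other 3 control libraries had 0 counts and any count is flagged. Klrd1 was lower in Ndrg3 ctrl replicate 3 (822 normalized counts) than in the other control libraries, which lay between 933 and 949. Klra7 was detected in Ndrg3 ctrl replicate 4 (6.35 normalized counts, from 6 reads) and in no other control library. Klrg1 had its only counts in Ndrg3 ctrl replicate 1 (2.91 normalized counts, from 3 reads). Icos was higher in Ndrg3 ctrl replicate 1 (2910 normalized counts) than in the other control libraries.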

How the results depend on the processing

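Of the tested genes, 168 were called (116 higher and 52 lower in Ndrg3 TKO). DESeq2 called 309, no filter on low counts 274, the Y-linked covariate 437, and leaving out a library 90 to 158. The replicate block called 800. Same-numbered libraries deviated together for 3 of the 4 numbers (r = 0.240, 0.512, −0.0572 and 0.387 across genes). Differently numbered libraries had r from −0.398 to 0.193. Replicate 3 was under the limit of 0.1 set for a pairing, and the main fit has no block. Y-linked counts also differed within number 3, at 0.0681 CPM in Ndrg3 ctrl and 416 CPM in Ndrg3 TKO. Within each other number they were alike, so a pairing and a likeness in Y-linked counts cannot be told apart. The labels do not say whether a number marks a shared litter or day, so a pairing of the mice remains unsettled. The number of calls under the block has no bearing on the strength of an effect. RLE scaling changed none of the calls among the lists.

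With the replicate block or the Y-linked covariate, 4 transcription factors were called, Id2 and Ikzf2 in addition to Eomes and Gata3, and 2 genes of the complex, Gm44066 and Clec12a. Under the block, 4 cytotoxic genes were called, with Nkg7, Ctsw and Serpinb9 beside Ccl5. Among the other NK surface receptors Cd160 made 1 call with DESeq2, with no filter and with the block. Leaving out a library gave 0 to 1 calls in the complex. Of the 9 members, which carry no test, the number under the threshold was 1 to 2, and nothing is read from it, since the added gene, Klrd1, appears only without Ndrg3 TKO replicate 1, the library that makes its groups overlap. The range was 1 to 1 for the adaptors, 2 to 2 for the transcription factors and 1 to 1 for the cytotoxic genes, and 0 to 0 for the ligands, the other NK surface receptors and the other Klr genes. The log2 fold change of Klrb1c was 2.34 to 3.15 when a library was left out, the highest without Ndrg3 ctrl replicate 2, and 2.55 to 2.62 under the other settings. None of the 17 genes followed singly changed sign. Depth limits the 7 untested members, which had at most 16 counts in a library.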
